A study of Mus musculus with 30 samples.

Results

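The tubulin genes examined here are Tuba1a, Tuba1b, Tuba1c, Tuba4a, Tubb2a, Tubb2b, Tubb3, Tubb5, Tubb6 and Tubg1. They were chosen by symbol, as 4 alpha, 5 beta and 1 gamma tubulin, and are 10 of the 21412 genes in the deposited table of hippocampal RNA. All 10 had rows in the table and passed the filter on low sums in every fit. The hippocampus of 30 male BALB/c mice was sequenced, with 5 mice in each of 6 groups of a full factorial design. Ctr mice had unspiked feed, LD mice had feed with 0.28 mg and HD mice had feed with 5 mg methylmercury (MeHg) per kg, for 11 weeks after arrival at the age of 2 to 3 weeks and 5 days of acclimatization. Se_Ctr, Se_LD and Se_HD mice were given selenium, as selenium-methionine in the diet by the title of the series, with no mercury, the low dose or the high dose. The amounts of selenium and mercury in the feed of these 3 groups are not given in the sources used here. The values are read counts per gene divided by a size factor for each library, called normalized counts, and replicates are numbered by accession.

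Alpha and beta tubulin pair into the dimers that polymerize into microtubules, the hollow filaments that carry transport and give shape to axons and dendrites, and gamma tubulin sits in the complex from which new microtubules grow. The alpha and beta genes encode similar proteins, called isotypes, whose mixture differs between cell types and changes as neurons mature. Tubulin holds many cysteine thiols, mercury binds thiols with high affinity, and microtubules are a known target of MeHg in cultured cells and in the developing brain. Cells also hold tubulin mRNA in check. When free dimers accumulate, the factor TTC5 recognises the first residues of alpha and beta tubulin as they leave the ribosome and starts the decay of the mRNA.

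The residues recognised in this autoregulation are encoded by the first codons. The bases there are shown for members of each class with the first 4 codons in capitals. The sequences are the first 24 coding bases, 5′ to 3′, from GENCODE vM1 transcripts on NCBIM37.
Tuba1a: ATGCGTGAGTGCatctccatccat
Tuba4a: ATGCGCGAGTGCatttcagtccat
Tubb2b: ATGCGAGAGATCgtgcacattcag
Tubb3: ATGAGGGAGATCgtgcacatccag
Tubg1: ATGCCGAGAGAAatcatcacccta
The first 12 bases were the same in 3 alpha genes, Tuba1a, Tuba1b and Tuba1c, while the other 4 sequences differ from them within these 12 bases. Translated, Tuba4a encodes the same first 4 residues as Tuba1a, and Tubb3 the same as Tubb2b, while Tubg1 encodes others. The second set shows how alike 2 members are. The last 60 coding bases of Tubb2a and Tubb2b, positions 1279 to 1338 including the stop codon, encode the C-terminal tail on which isotypes usually differ, and capitals mark the bases that differ.
Tubb2a: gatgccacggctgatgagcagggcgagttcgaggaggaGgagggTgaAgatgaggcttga
Tubb2b: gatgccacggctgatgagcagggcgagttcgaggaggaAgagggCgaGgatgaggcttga
These 60 bases differed at 3 positions, none of which changes the encoded residue, and the whole coding sequences of 1338 bases differed at 47.

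Such likeness limits what a count of one gene means. Reads were 75 bases long, so each transcript was divided into all its 75-base windows, and a window was called shared when a protein-coding transcript of another gene held it too. Tuba1a shared 49.6% of its windows, Tuba1b 58.8% and Tuba1c 56.8%, mostly among themselves. Tubb2a shared 40.9% and Tubb2b 33.4%, in both cases with the other of the pair. Tubg1 shared 7.64% with Tubg2, and Tuba4a, Tubb3, Tubb5 and Tubb6 shared none. Coding identity was 98.3% between Tuba1a and Tuba1b, 97.9% between Tuba1b and Tuba1c, 97.1% between Tuba1a and Tuba1c and 96.5% between Tubb2a and Tubb2b. How reads that fit several genes were counted is not given in the sources used here, so the values of Tuba1a, Tuba1b, Tuba1c, Tubb2a and Tubb2b are uncertain to that extent. Tuba1c is the most exposed, since it is a low gene beside 2 near copies that are far higher.

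The libraries held 5768208 to 11510521 reads on genes, and the reads behind a single value ran from 1265 to 7401 for Tubb2b, from 89 to 273 for Tubg1, from 11 to 160 for Tubb6 and from 6 to 47 for Tuba1c. All 10 markers of hippocampal neurons were detected in every group, with summed normalized counts of 85583 to 94651 in Ctr mice. HD replicate 2 stood apart from the other 4 HD mice, with 32820.3 normalized counts of the astrocyte filament gene Gfap against 4080.2 to 12446, so the differences that turn on it are also given without it. In bulk tissue, fewer cells of a type and less RNA per cell cannot be told apart.

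Per kb of exon, and over all 30 mice, Tubb2a had the highest level of the 10 genes with 2133 ± 300.4 normalized counts per kb (SD). It was followed by Tuba1a with 1613 ± 181, Tuba4a with 1464 ± 167 and Tubb2b with 1376 ± 457. Next were the broadly expressed beta isotype Tubb5 with 859 ± 84.8, Tubb3, the beta isotype typical of neurons, with 849 ± 119, and Tuba1b, which is found in most cell types, with 545 ± 70.9. Tubg1, the nucleating gamma tubulin, stood at 81.5 ± 12.1, Tubb6 at 17.2 ± 11.3 and Tuba1c at 12.7 ± 4.25. Tubb2a exceeded Tuba1a in 30 of 30 mice. Tuba1a exceeded Tuba4a in 23 of 30 and Tuba4a exceeded Tubb2b in 25 of 30, and their ranges overlapped. Tubb5 exceeded Tubb3 in 15 of 30 mice, so these neighbours had no stable order. Tuba1b exceeded Tubg1 in 30 of 30 mice, and this was the only pair of neighbours whose ranges did not overlap. The order of the upper genes depends on the scale. Per kb of unshared windows Tubb2b lay above Tuba4a, and Tuba1b lay above Tubb5 and Tubb3.

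**Figure D1:**
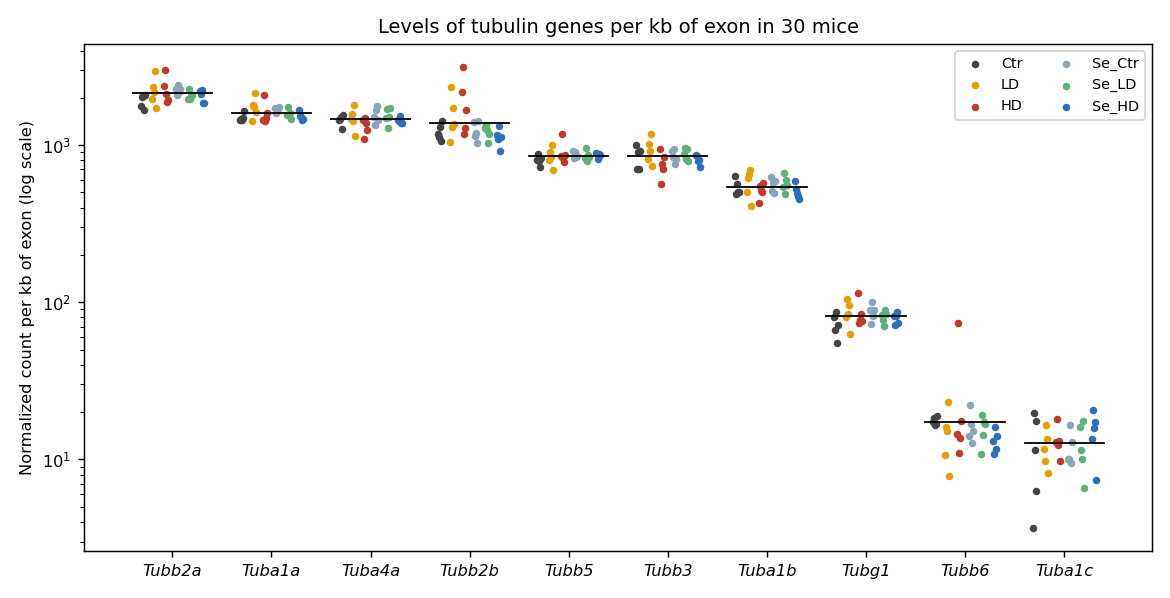
Normalized counts per kb of exon of each tubulin gene in each of the 30 mice, on a log axis, in order of the mean (black lines) and coloured by group. The 7 highest genes lie close together at 545 to 2133 on average, and Tubg1, Tubb6 and Tuba1c lie far below at 81.5, 17.2 and 12.7.

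Of the 9 alpha and beta members together, per kb of exon, Tubb2a made up 24.0% ± 1.16, Tuba1a 18.2% ± 1.10, Tuba4a 16.6% ± 1.94 and Tubb2b 15.3% ± 3.34 (SD, n = 30). The 4 alpha genes made up 41.2% ± 2.54. Other tubulins such as Tubb4a are not in this sum. In Ctr mice Tubb2b was 14.6% ± 0.883 of it, in LD mice 16.4% ± 3.56 and in HD mice 19.7% ± 5.09 (SD, n = 5), or 17.9% ± 3.69 in the 4 HD mice other than replicate 2. In Se_Ctr, Se_LD and Se_HD mice it was 13.7% ± 1.55, 14.0% ± 1.28 and 13.5% ± 1.26. The highest single shares of Tubb2b were 26.8% in HD replicate 2, 22.5% in HD replicate 1 and 22.0% in LD replicate 2. In HD replicate 2 the shares of Tuba4a and Tubb3 were the lowest of all mice, at 9.37% and 4.85%. The shares are a description and were not tested.

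The positions are those of GENCODE vM1 on NCBIM37. Tuba1b lies at 15:98761856-98764996 and Tuba1a at 15:98780272-98783982, both on the minus strand, with Tuba1c at 15:98860322-98868536 on the plus strand. Tubb2a at 13:34166170-34169877 and Tubb2b at 13:34218877-34222223 are neighbours on the minus strand. The other members are single genes, Tuba4a at 1:75211549-75215828 and Tubb5 at 17:35970871-35975251 on the minus strand, and Tubb3 at 8:125935324-125945915, Tubg1 at 11:100981252-100987733 and Tubb6 at 18:67550371-67562402 on the plus strand.

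Tubb2b, a beta isotype that is high in developing neurons and also present in glia, varied most between mice among the 8 members that lie above Tubb6 and Tuba1c in level. In Ctr mice it had 2248, 2152, 2516, 2058 and 2750.5 normalized counts. In LD mice it had 2005, 4493, 2525, 3312 and 2622, and in HD mice 4199, 6040.4, 2259, 2476 and 3205. HD replicates 1, 2 and 5 and LD replicates 2 and 4 lay above all Ctr mice, while the remaining LD and HD mice lay among or below them. In Se_Ctr mice the values were 2702, 2185, 2293, 1992 and 2726, in Se_LD mice 2467, 2598, 2391, 1991 and 2279.9 and in Se_HD mice 2243, 2112, 2546, 1772 and 2165. Of the LD and HD mice 5 of 10 exceeded the highest Ctr mouse, and of the Se_LD and Se_HD mice 0 of 10. The coefficient of variation within a group was 42.4% in HD and 32.1% in LD, against 9.78% to 13.6% in the other 4 groups. In HD without replicate 2 it was 28.8%.

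For the comparison of high-dose MeHg with control feed, which asks whether the exposure altered tubulin mRNA, Tubb2b had a log2 difference of 0.54 (SE 0.22, 95% confidence interval 0.084 to 1.00, limma unadjusted p = 0.0228, adjusted p = 0.485), and the exact two-sided permutation test of 5 mice against 5 gave p = 0.0794. It did not pass the adjusted threshold of 0.05. Within sets of 6 libraries with consecutive numbers, each with 1 mouse of every group, Tubb2b was higher in HD than in Ctr in 5 of 5 sets, by log2 0.14, 0.22, 0.96, 1.26 and 0.13. Without HD replicate 2 the log2 difference was 0.34 (limma unadjusted p = 0.0921, adjusted p = 0.829), and without HD replicate 1 it was 0.47 (limma unadjusted p = 0.0583, adjusted p = 0.606). Without Ctr replicate 4 it was 0.50 (limma unadjusted p = 0.0517), so the unadjusted p under 0.05 rests on each of these 3 mice, while the sign held without any 1 of the 15.

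**Figure D2:**
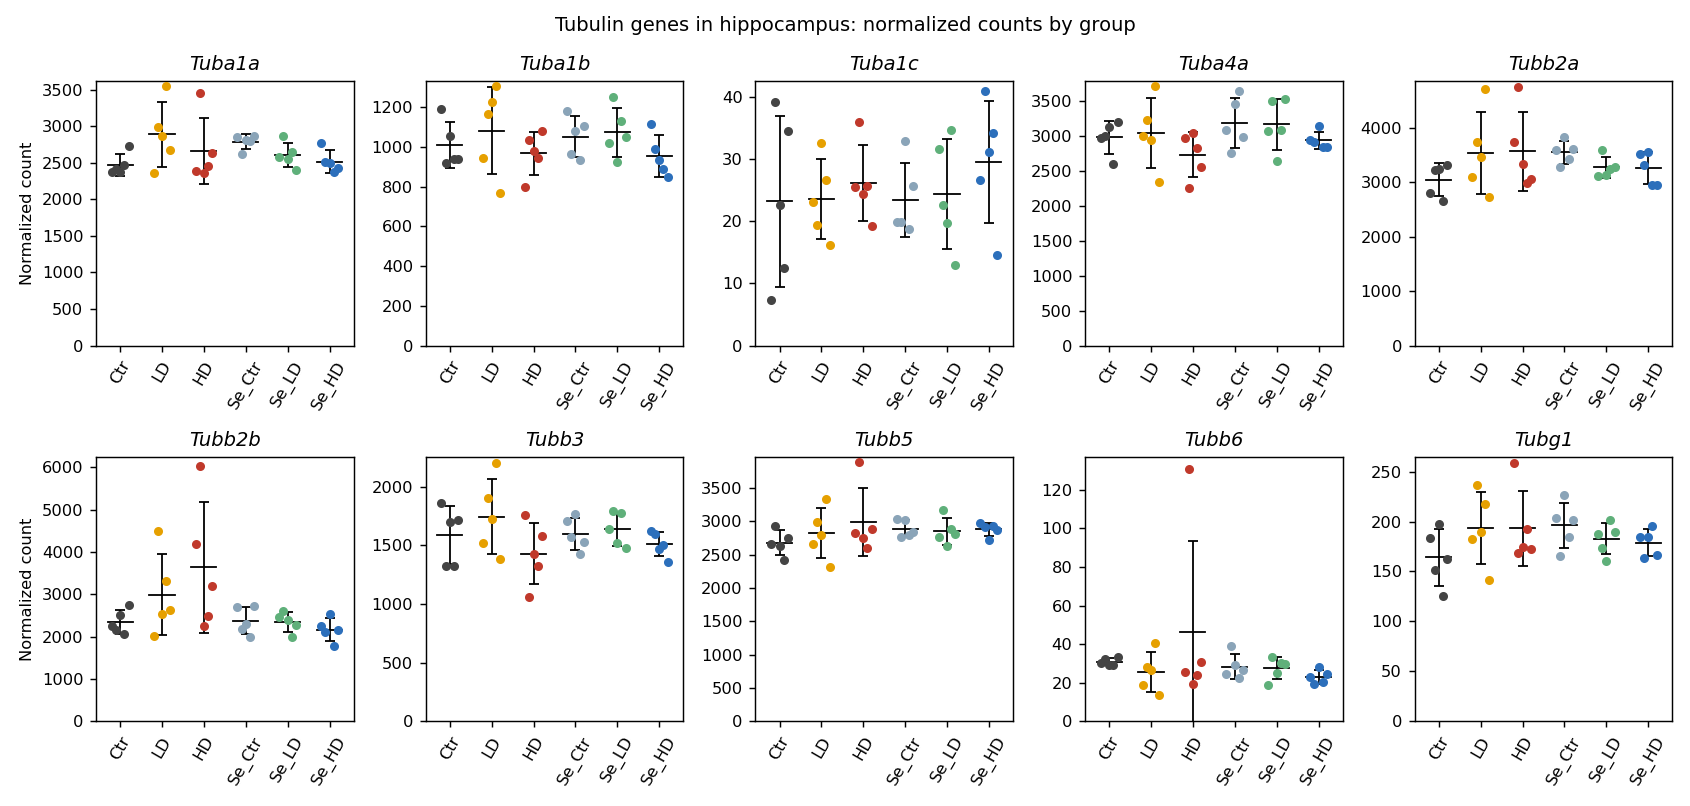
Normalized counts of the 10 tubulin genes in each mouse by group, with the group mean (line) and SD (bars, n = 5). Tubb2b spreads from 2259 to 6040.4 in HD mice and reaches at most 2726 in mice given selenium, and 1 HD mouse at 131 sets the wide bar of Tubb6, whose lower end is clipped at 0.

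The other members in HD against Ctr gave small differences in both directions. The alpha genes Tuba1a, Tuba1b, Tuba1c and Tuba4a had log2 differences of 0.090, -0.062, 0.37 and -0.13. The beta genes Tubb2a, Tubb3, Tubb5 and Tubb6 had 0.21, -0.15, 0.14 and 0.16, and Tubg1 had 0.23. When 1 mouse was left out, several of these moved by more than 1.5 times. Without HD replicate 2 Tubb2a was at 0.10, Tubb5 at 0.046, Tubb3 at -0.053, Tuba4a at -0.064 and Tuba1a at -0.0080. Tubg1 was at 0.12 without HD replicate 1, Tuba1b at 0.0047 without HD replicate 1, and Tuba1c at 0.039 without Ctr replicate 1 and 0.61 without Ctr replicate 2. Of the 10 members 0 passed limma's test at an adjusted p under 0.05 and 1 had an unadjusted p under 0.05, while with limma 8.34% of all genes tested had an unadjusted p under 0.05 and 0.13% an adjusted p under 0.05. The counts of members were also 0 and 1 with edgeR and with DESeq2 on the recovered reads. The median log2 difference of the members was 0.15, against 0.0067 over all 20031 genes, and without HD replicate 2 the members' median was 0.019. The half-width of the 95% confidence intervals ran from 0.24 to 0.80 on the log2 scale with a median of 0.29, so differences of that size could not be resolved with 5 mice a group.

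Tubb2a, the beta isotype with the highest level, had 3743, 4759.9, 3329.9, 2982 and 3056 normalized counts in HD mice and 2813, 3228, 3241, 2651 and 3319.5 in Ctr mice. HD replicates 1, 2 and 3 lay above all Ctr mice, and the other 2 lay among them. Tubb5 had 2826, 3891, 2749, 2601 and 2881 in HD mice and 2666, 2932, 2637, 2423 and 2745 in Ctr mice, and 1 HD mouse lay above all Ctr mice. Tubg1 had 258, 168, 174, 192 and 172 in HD mice, with HD replicate 1 above all Ctr mice. Tuba1a had 2393, 3454, 2363, 2455 and 2630.4, and HD replicate 2 was the only HD mouse above all Ctr mice. Tuba1b ranged over 799 to 1079 in HD and 919 to 1188 in Ctr mice, and Tuba1c over 19.2 to 35.9 and 7.24 to 39.1. Per kb of exon, the 4 alpha genes summed to 3473 ± 169.8 normalized counts in HD and 3503 ± 169.8 in Ctr mice (SD, n = 5). The 5 beta genes summed to 5839.7 ± 1352 in HD and 4819 ± 412 in Ctr mice, and without HD replicate 2 the HD sums were 3399 ± 47.1 and 5309 ± 748.

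HD replicate 2 shaped several of these values. It had the highest value of the 5 HD mice for Tuba1a, Tuba1c, Tubb2a, Tubb2b, Tubb5 and Tubb6 and the lowest for Tuba4a, Tubb3 and Tubg1. For Tubb2a, Tubb2b, Tubb5 and Tubb6 it was the highest of all 30 mice, and for Tuba4a and Tubb3 the lowest. Tubb6, a beta isotype that is low in adult neurons, had 25.6, 131, 19.2, 24.1 and 30.8 normalized counts in HD mice and 30.2, 32.3, 29.3, 29.3 and 33.2 in Ctr mice. Of the 4 other HD mice 3 lay below all Ctr mice and 1 among them, and the log2 difference of Tubb6 turned from 0.16 to -0.31 without HD replicate 2. Tubb3 had 1757, 1063, 1422, 1325 and 1581 in HD mice and 1863, 1325, 1697, 1322 and 1719 in Ctr mice, with 1063 in HD replicate 2. Tuba4a, an alpha isotype of mature neurons, had 2977, 2258, 3035, 2823 and 2556 in HD mice and 2968, 2996, 3125, 2596 and 3206 in Ctr mice. In both genes HD replicate 2 was the lowest of the 10 mice, and the remaining values overlapped.

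**Figure D3:**
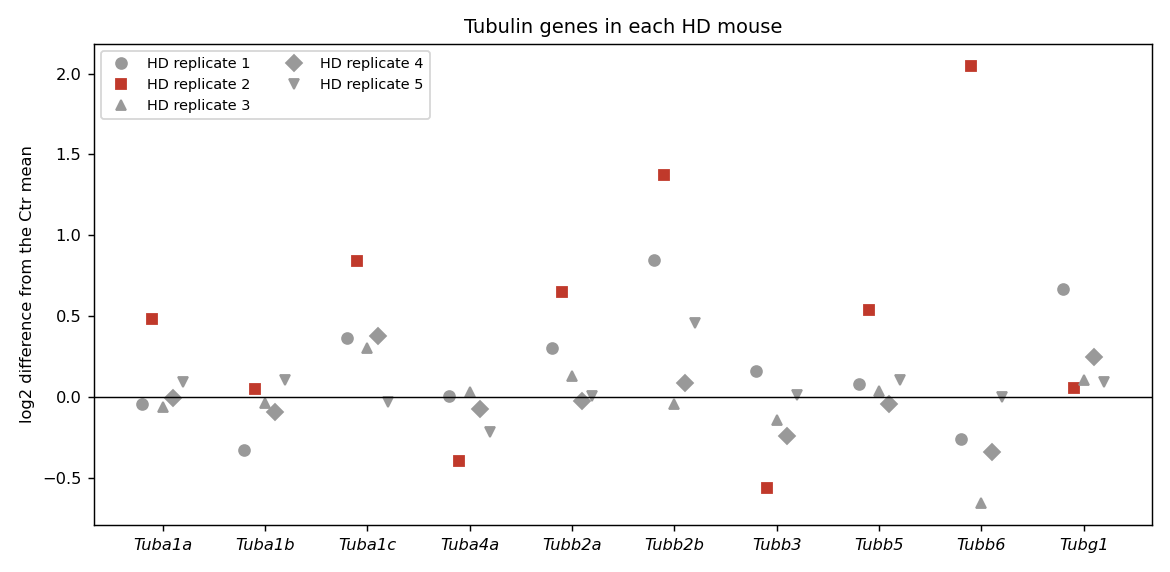
Log2 difference of each HD mouse from the mean of the 5 Ctr mice for each tubulin gene, with HD replicate 2 in red squares. It lies at 2.05 for Tubb6, 1.37 for Tubb2b and 0.65 for Tubb2a, and at -0.56 for Tubb3 and -0.40 for Tuba4a.

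Markers of glia moved with HD in these libraries. All 12 microglial markers had an unadjusted p under 0.05 and were higher in HD, 6 of them with an adjusted p under 0.05, and their summed normalized counts were 4113 to 10207 in HD mice against 3185 to 3467 in Ctr, 3108 to 3617 in LD, 3112 to 3750.1 in Se_Ctr, 3267 to 3683 in Se_LD and 3312 to 3944 in Se_HD mice. Tyrobp, an adaptor of microglial receptors, rose by log2 1.71 (limma adjusted p = 0.00903). Of 8 astrocyte markers 4 were higher with an unadjusted p under 0.05, and 1, Gfap, passed the adjusted threshold with log2 2.39 (limma adjusted p = 0.00716). The summed astrocyte markers were 59719 to 92376 in HD mice, 49520.1 to 58936 in Ctr, 45916 to 59792 in LD, 48430.0 to 54606 in Se_Ctr, 49774 to 61910.5 in Se_LD and 50459.9 to 53271 in Se_HD mice. The highest values of both lists were those of HD replicate 2. No marker of these lists was at 0 in all mice of a group. Without HD replicate 2, 12 microglial markers had an unadjusted and 3 an adjusted p under 0.05, and of the astrocyte markers 3 and 1. The part of these cells in the tubulin values was not tested.

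Among the HD mice, Gfap stood at 5143, 32820.3, 4080.2, 7281 and 12446 normalized counts, in the order of replicates 1 to 5, and Tubb2b at the values above. HD replicate 2 was the highest and HD replicate 3 the lowest in both genes, and HD replicate 5 was next below replicate 2 in Gfap and the third in Tubb2b. HD replicate 1 was the next below replicate 2 in Tubb2b and the fourth in Gfap, and HD replicate 4 was the third in Gfap and the fourth in Tubb2b. Of the 9 markers of immature neurons, cells in which Tubb2b is usually high, 0 had an unadjusted p under 0.05 in HD against Ctr, and 2 without HD replicate 2, with a median log2 difference of 0.35 and a summed level of 689.7 to 1089 in HD and 700.3 to 869 in Ctr mice. Sox11, a transcription factor of young neurons, had 48.4, 48.2, 22.7, 42.6 and 25.8 in HD mice and 22.9, 20.4, 27.4, 31.6 and 12.8 in Ctr mice. Dcx, another marker of this list, went the other way, with 219 ± 31.0 normalized counts in HD and 246 ± 40.4 in Ctr mice (SD, n = 5). Of the 10 markers of hippocampal neurons 0 passed either threshold, and their sum was lowest in HD replicate 2, at 59808. Of 7 proliferation genes 1, Birc5, had an unadjusted p under 0.05, and 0 without HD replicate 2, in which their sum was 616 against 71.2 to 103 in Ctr mice. Of 8 oligodendrocyte, 6 endothelial, 8 thalamus and striatum and 5 erythrocyte markers 0 had an unadjusted p under 0.05. Of 8 choroid plexus markers 1 did, Folr1, and their sum was 7035 to 29439 in HD and 829.5 to 31295 in Ctr mice. How these markers bear on Tubb2b was not tested.

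At the low dose, 0 of the 10 members had an adjusted or an unadjusted p under 0.05 against Ctr with limma, and 0 with edgeR and DESeq2, while with limma 3.01% of all genes tested had an unadjusted p under 0.05 and 0% an adjusted p under 0.05. The members' median log2 difference was 0.17, with 9 of 10 above 0, against 0.0048 over all genes. These members share libraries, so their signs are not independent. Tuba1a, the main alpha isotype of growing neurons, had 2363, 2985, 2866, 3551 and 2672 normalized counts in LD mice and 2374, 2421, 2378, 2470.0 and 2734 in Ctr mice. Its log2 difference was 0.21 (SE 0.12, 95% confidence interval -0.030 to 0.45, limma unadjusted p = 0.0835, adjusted p = 0.999), and 3 of 5 LD mice lay above all Ctr mice with 1 below. Without LD replicate 4 it was 0.13. Tubb2b had a log2 difference of 0.30 (SE 0.22, 95% confidence interval -0.16 to 0.76, limma unadjusted p = 0.184, adjusted p = 0.999), and 0.14 without LD replicate 2. Within the library sets Tubb2b was higher in LD than in Ctr in 3 of 5. Tubb6 gave the lowest difference, -0.35, and -0.15 without LD replicate 5. Of the 9 markers of immature neurons 2, Eomes and Calb2, were higher in LD with an unadjusted p under 0.05, the list's median was 0.21, and the summed level was 708 to 1030.2 in LD and 700.3 to 869 in Ctr mice. Eomes is low, at 3.73 to 32.6 normalized counts in LD and 1.13 to 8.95 in Ctr mice. Dcx, of the same list, was at 244 ± 41.2 in LD and 246 ± 40.4 in Ctr mice (SD, n = 5). Of the other marker lists 1 of 8 thalamus and striatum markers was higher and 1 of 5 erythrocyte markers lower. The part of these cells in the value of Tubb2b was not tested.

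In the mice given selenium, the same doses were compared with Se_Ctr. Tuba1a had 2774, 2516, 2490.4, 2369 and 2426 normalized counts in Se_HD mice and 2852, 2620.2, 2809, 2802 and 2863 in Se_Ctr mice. It had a log2 difference of -0.15 (SE 0.061, 95% confidence interval -0.28 to -0.024, limma unadjusted p = 0.0221, adjusted p = 1), and p = 0.0159 in the exact two-sided permutation test, the lowest value of the 10 members. Of the 5 Se_HD mice 4 lay below all Se_Ctr mice. Without Se_HD replicate 4 or Se_HD replicate 5 the unadjusted p of limma was 0.0552 or 0.0505. This was the 1 member with an unadjusted p under 0.05, and 0 passed the adjusted threshold with limma, edgeR or DESeq2, while with limma 4.19% of all genes tested had an unadjusted p under 0.05 and 0% an adjusted p under 0.05 (DESeq2 called 4 genes). The members' median log2 difference was -0.13, with 1 of 10 above 0, against -0.0056 over all genes. Tubb2b had -0.13 (SE 0.098, 95% confidence interval -0.34 to 0.071, limma unadjusted p = 0.19, adjusted p = 1), and -0.063 without Se_HD replicate 4. In Se_HD against Se_Ctr 2 of 8 astrocyte markers and 1 of 6 endothelial markers were higher with an unadjusted p under 0.05, and their part in the value of Tuba1a was not tested. For Se_LD against Se_Ctr 0 members passed either threshold with limma, edgeR or DESeq2, the median was -0.018, and with limma 3.31% of all genes tested had an unadjusted p under 0.05 and 0% an adjusted p under 0.05. The differences ran from -0.12 for Tubb2a to 0.036 for Tubb3.

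Tubb2a had 3120.2, 3605, 3129, 3251 and 3281 normalized counts in Se_LD and 3598, 3285, 3835, 3435 and 3616 in Se_Ctr mice, and 4 of 5 Se_LD mice lay below all Se_Ctr mice (p = 0.0556 in the exact permutation test). In Se_HD mice it ranged over 2947 to 3559. Tuba1a had 2575, 2861, 2556, 2649 and 2403 in Se_LD mice, 3 of which lay below all Se_Ctr mice (p = 0.0952 in the exact permutation test). For the other members the ranges are given by group. Tubb5 ranged over 2760.2 to 3036 normalized counts in Se_Ctr, 2637 to 3178 in Se_LD and 2725 to 2978 in Se_HD mice. Tubb3 ranged over 1423 to 1766, 1476 to 1791 and 1362 to 1623 in the same groups, Tuba4a over 2762 to 3636, 2639 to 3523 and 2842 to 3144, and Tuba1b over 933 to 1180.4, 921 to 1249 and 846 to 1115. These ranges overlapped in every pair of groups. The low genes did too, with Tubb6 at 22.4 to 38.9, 19.0 to 33.5 and 19.1 to 28.3 and Tuba1c at 18.8 to 32.8, 13.0 to 34.7 and 14.6 to 40.9. For Tubg1 the ranges were 165 to 226, 161 to 202 and 163 to 196.

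**Figure D4:**
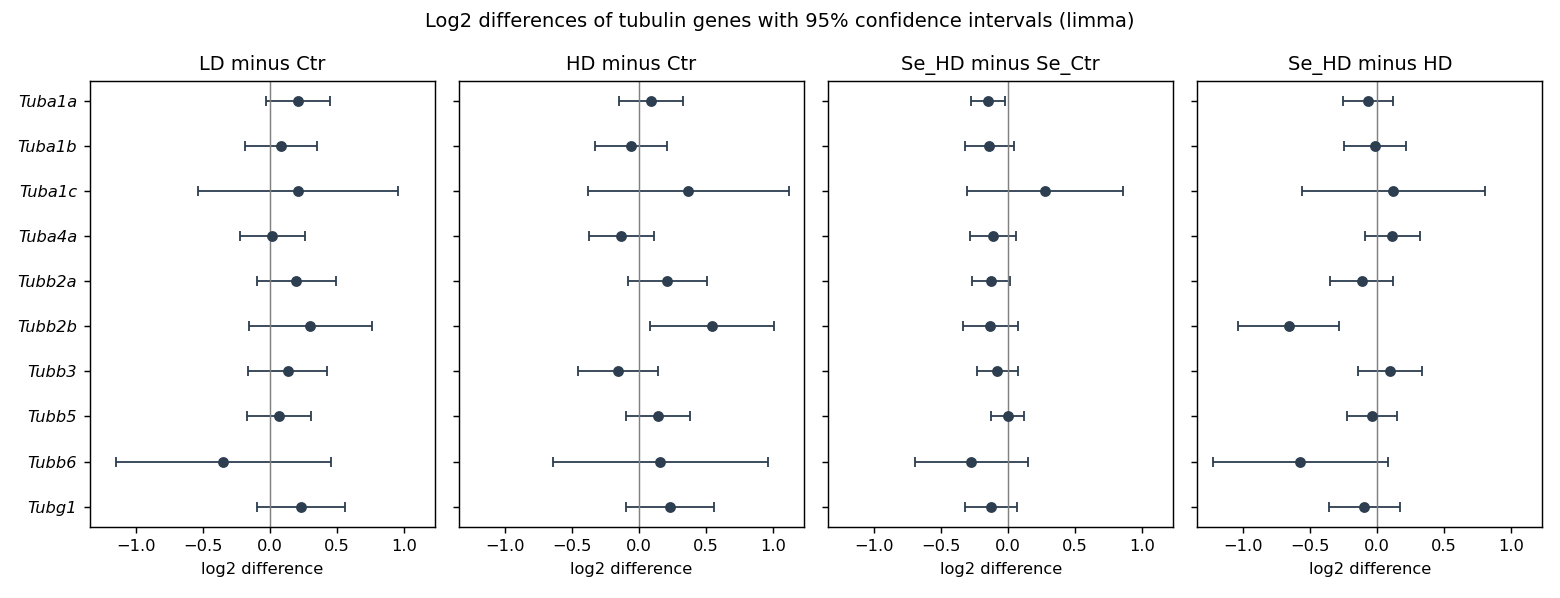
Log2 differences of the tubulin genes with 95% confidence intervals from limma for LD minus Ctr, HD minus Ctr, Se_HD minus Se_Ctr and Se_HD minus HD. The intervals of Tubb2b exclude 0 in HD minus Ctr and in Se_HD minus HD, those of Tuba1a in Se_HD minus Se_Ctr, and the intervals of the low genes Tuba1c and Tubb6 are the widest.

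The comparison of Se_HD with HD asks how the high dose with selenium differed from the high dose alone. Tubb2b was at 2168 ± 278 normalized counts in Se_HD mice and 3636 ± 1543 in HD mice (SD, n = 5), and 4 of 5 Se_HD mice lay below all HD mice. The log2 difference was -0.66 (SE 0.19, 95% confidence interval -1.04 to -0.28, limma unadjusted p = 0.00115, adjusted p = 0.167), and p = 0.0317 in the exact two-sided permutation test. The call at the adjusted threshold depended on the tool, since edgeR gave an adjusted p of 0.0479 with log2 -0.74 and DESeq2 0.0156 with log2 -0.75. Without HD replicate 2 limma gave log2 -0.45 with an adjusted p of 0.531, and without HD replicate 3 log2 -0.81 with an adjusted p of 0.0223. Se_HD was lower than HD in 5 of 5 library sets, by log2 -0.19, -0.51, -0.99, -1.25 and -0.35. This comparison and that of HD with Ctr share the 5 HD mice.

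Of the 10 members, 0 passed limma's adjusted threshold in Se_HD against HD and 1, Tubb2b, had an unadjusted p under 0.05, while with limma 8.38% of all genes tested had an unadjusted p under 0.05 and 0.327% an adjusted p under 0.05. Tubb6 was the second member at an unadjusted p under 0.05 with edgeR (adjusted p = 0.254) and DESeq2 (log2 -1.01, adjusted p = 0.199), and without HD replicate 2 its limma difference moved from -0.57 to -0.10. The members' median was -0.052, and 0.0026 without HD replicate 2, against -0.0084 over all genes. The neuronal Tubb3 had 0.098, Tuba4a 0.11 and Tuba1c 0.12. Tuba1a had -0.067, Tuba1b -0.018, Tubb2a -0.11, Tubb5 -0.037 and Tubg1 -0.095. With HD replicate 2 left out Tubb2a was at -0.0060, Tuba4a at 0.048 and Tubb3 at -0.0038. In the same comparison 11 of 12 microglial and 5 of 8 astrocyte markers were lower in Se_HD with an unadjusted p under 0.05. So were 1 of 9 markers of immature neurons, 2 of 6 endothelial markers, 1 of 8 thalamus and striatum markers and 1 of 7 proliferation genes. Of the 10 markers of hippocampal neurons 1 was higher. The part of all these cells in the values of Tubb2b and Tubb6 was not tested.

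Selenium without mercury was compared in Se_Ctr and Ctr mice. Tubg1, the gamma tubulin, had 203, 165, 226, 185 and 202 normalized counts in Se_Ctr mice and 184, 151, 197, 125 and 162 in Ctr mice. Its log2 difference was 0.27 (SE 0.13, 95% confidence interval 0.0014 to 0.53, limma unadjusted p = 0.0489, adjusted p = 1), and p = 0.0635 in the exact permutation test. The unadjusted p of limma exceeded 0.05 in 20 of the 30 fits that leave out 1 mouse, up to 0.194 without Ctr replicate 4. Tuba1a and Tubb2a were each above all Ctr mice in 4 of 5 Se_Ctr mice, Tubb2a with 3598, 3285, 3835, 3435 and 3616 normalized counts, with log2 differences of 0.17 and 0.22, limma unadjusted p of 0.0697 and 0.0596, and p = 0.0159 for both in the exact permutation test. Both exact p-values are before any adjustment, and no share over all genes was computed for the exact test. In the same comparison 2 of 5 erythrocyte markers, with a median of -0.85, and 1 of 6 endothelial markers were lower with an unadjusted p under 0.05, and their part in these values was not tested. With limma 0 members passed the adjusted and 1 the unadjusted threshold, with edgeR and DESeq2 0 passed either, and with limma 4% of all genes tested had an unadjusted p under 0.05 and 0% an adjusted p under 0.05. For Se_LD against LD 0 members passed either threshold with limma, edgeR or DESeq2, the differences ran from -0.30 for Tubb2b to 0.16 for Tubb6, and with limma 2.86% of all genes tested had an unadjusted p under 0.05 and 0% an adjusted p under 0.05. Without LD replicate 2 Tubb2b was at -0.14, and without LD replicate 5 Tubb6 was at -0.031.

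Pooled over both diets, HD mice differed from mice without mercury by -0.12 for Tuba4a to 0.32 for Tuba1c on the log2 scale, and Tubb2b by 0.21. When HD replicate 2 was left out they ranged from -0.29 for Tubb6 to 0.26 for Tuba1c, with Tubb2b at 0.10. Tuba1c was at 0.16 without Ctr replicate 1. In this comparison 12 of 12 microglial markers (6 with an adjusted p under 0.05), 4 of 8 astrocyte markers (1) and 2 of 9 markers of immature neurons (0) were higher with an unadjusted p under 0.05 and 1 of 5 erythrocyte markers was lower, and the part of these cells in the values of the members and of the genes around tubulin was not tested. For HD and for LD pooled over diets 0 members passed either threshold with limma, edgeR or DESeq2. For the pooled HD comparison with limma 9.09% of all genes tested had an unadjusted p under 0.05 and 0.21% an adjusted p under 0.05, and for the pooled LD comparison with limma 2.69% of all genes tested had an unadjusted p under 0.05 and 0% an adjusted p under 0.05. Selenium pooled over doses, 15 mice against 15, gave Tubb2b a log2 difference of -0.31 (SE 0.11, 95% confidence interval -0.53 to -0.096, limma unadjusted p = 0.006, adjusted p = 0.675), and without HD replicate 2 -0.24 (limma unadjusted p = 0.0117). It was the 1 member with an unadjusted p under 0.05, 0 passed the adjusted threshold with limma, edgeR or DESeq2, and with limma 6.62% of all genes tested had an unadjusted p under 0.05 and 0% an adjusted p under 0.05 (DESeq2 called 4 genes). In the same comparison 7 of 12 microglial markers, with a median of -0.23, and 3 of 8 astrocyte markers were lower with an unadjusted p under 0.05, and 7 and 2 without HD replicate 2. Also lower were 1 of 9 markers of immature neurons, 1 of 6 endothelial and 2 of 5 erythrocyte markers, and 1, 0 and 3 without HD replicate 2. Of the 10 markers of hippocampal neurons 1 was higher, and 0 without HD replicate 2. The part of all these cells in this value of Tubb2b was not tested.

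Whether the effect of the dose differed between diets was tested by interaction. For HD by selenium, Tubb2b had -0.68 (SE 0.26, 95% confidence interval -1.21 to -0.14, limma unadjusted p = 0.0142, adjusted p = 0.966) and Tubb2a -0.34 (SE 0.16, 95% confidence interval -0.67 to -0.0085, limma unadjusted p = 0.0447, adjusted p = 0.997), both lower when selenium was given. Without HD replicate 2 these were -0.47 (limma unadjusted p = 0.0459) and -0.23 (limma unadjusted p = 0.131). Of 10 members 2 had an unadjusted and 0 an adjusted p under 0.05, with limma, edgeR and DESeq2 alike, and with limma 4.77% of all genes tested had an unadjusted p under 0.05 and 0% an adjusted p under 0.05 (DESeq2 called 11 genes). The unadjusted p of Tubb2a also exceeded 0.05 without each of 8 other mice. For LD by selenium, Tuba1a had -0.31 (SE 0.13, 95% confidence interval -0.58 to -0.043, limma unadjusted p = 0.0242, adjusted p = 0.998), and without LD replicate 4 -0.23 (limma unadjusted p = 0.0713). It was the 1 member with an unadjusted p under 0.05, Tubb2a was a second one with edgeR and DESeq2, 0 passed the adjusted threshold with any of the 3 tools, and with limma 3.75% of all genes tested had an unadjusted p under 0.05 and 0% an adjusted p under 0.05. In LD by selenium 2 of 5 erythrocyte markers were higher with an unadjusted p under 0.05 and 1 of 6 endothelial markers too, and their part was not tested. In HD by selenium 11 of 12 microglial markers, with a median of -0.91, and 2 of 8 astrocyte markers, with a median of -0.22, had an unadjusted p under 0.05 and were lower, and 10 and 3 without HD replicate 2. Their part in the terms of Tubb2b and Tubb2a was not tested. In the F test over all 6 groups Tubb2b had the lowest p of the members (limma unadjusted p = 0.0106, adjusted p = 0.425). It was the 1 member with an unadjusted p under 0.05 and 0 passed the adjusted threshold with limma, while with limma 6.91% of all genes tested had an unadjusted p under 0.05 and 0.444% an adjusted p under 0.05.

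Members also varied together between mice of 1 group. Each log2 value was taken as its deviation from the mean of its group, and all 45 pairs of members were compared over 30 mice, with p-values from 100000 permutations within groups and adjusted over the 45 pairs. Of the 45 pairs 42 had a positive r, 17 had an adjusted p under 0.05 by Pearson's r and 15 by Spearman's rho. The median r was 0.368 over the 45 pairs and 0.00214 over all pairs of the 9265 genes outside the set whose mean reached 100 normalized counts. The lowest r among the 17 pairs was 0.461. Of the 45 member pairs 37.8% reached it, and of all those gene pairs 6.93%, so such values also occur outside tubulins. Tuba1c and Tubb6, with means of 25.0 and 30.2 normalized counts, lie below the limit of 100 set for those genes. What sets the difference between the shares was not tested. For Tubb2a and Tubb5, Pearson's r was 0.852 (permutation p = 1e-05, adjusted 0.00045) and Spearman's rho 0.685 (permutation p = 0.00026, adjusted 0.0048), and r was 0.734 without the 2 mice farthest from the median of Tubb2a and 0.804 without HD replicate 2. The permutation p of 1e-05 is the smallest that the permutations can give. For the neighbouring genes Tubb2a and Tubb2b, Pearson's r was 0.692 (permutation p = 0.00419, adjusted 0.0206) and Spearman's rho 0.740 (permutation p = 0.00016, adjusted 0.0048), with r = 0.607 without the 2 farthest mice. This pair shares 40.9% of the windows of Tubb2a, and the part of that in r was not tested.

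For Tubb3 and Tubg1, Pearson's r was 0.706 (permutation p = 0.0008, adjusted 0.0117) and Spearman's rho 0.645 (permutation p = 0.00127, adjusted 0.0114), and r was 0.703 without the 2 farthest mice. For Tuba4a and Tubg1, Pearson's r was 0.636 (permutation p = 0.00164, adjusted 0.0123) and Spearman's rho 0.529 (permutation p = 0.00766, adjusted 0.0308), and r was 0.528 without the 2 farthest mice. Tubb3 and Tuba4a had r = -0.100 and -0.0714 with Tubb6 (permutation p = 0.724 and 0.772) and rho = 0.138 and 0.0799 (permutation p = 0.514 and 0.712). Without HD replicate 2 these r were 0.336 and 0.269. The member most like Tuba1a, Tuba1b, Tubb2a and Tubb6 was Tubb5, that most like Tuba1c, Tubb2b and Tubb5 was Tubb2a, that most like Tuba4a and Tubb3 was Tubg1, and that most like Tubg1 was Tubb3. Without HD replicate 2 the member most like Tuba4a was Tubb2a, with r = 0.692 against 0.622 for Tubg1. That most like Tuba1a was then Tubb2a too, with r = 0.686 against 0.671 for Tubb5. The genes outside the set most like the mean deviation of the 10 members, searched over the same 9265 genes, were Psmb2, a proteasome subunit, with r = 0.851, Dad1, a subunit of the enzyme that glycosylates nascent proteins, with r = 0.845, and Psmb10, a subunit of the immunoproteasome, with r = 0.814 over 30 mice. These 3 values are a description of genes picked for their likeness. All points share a library and its size factor.

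**Figure D5:**
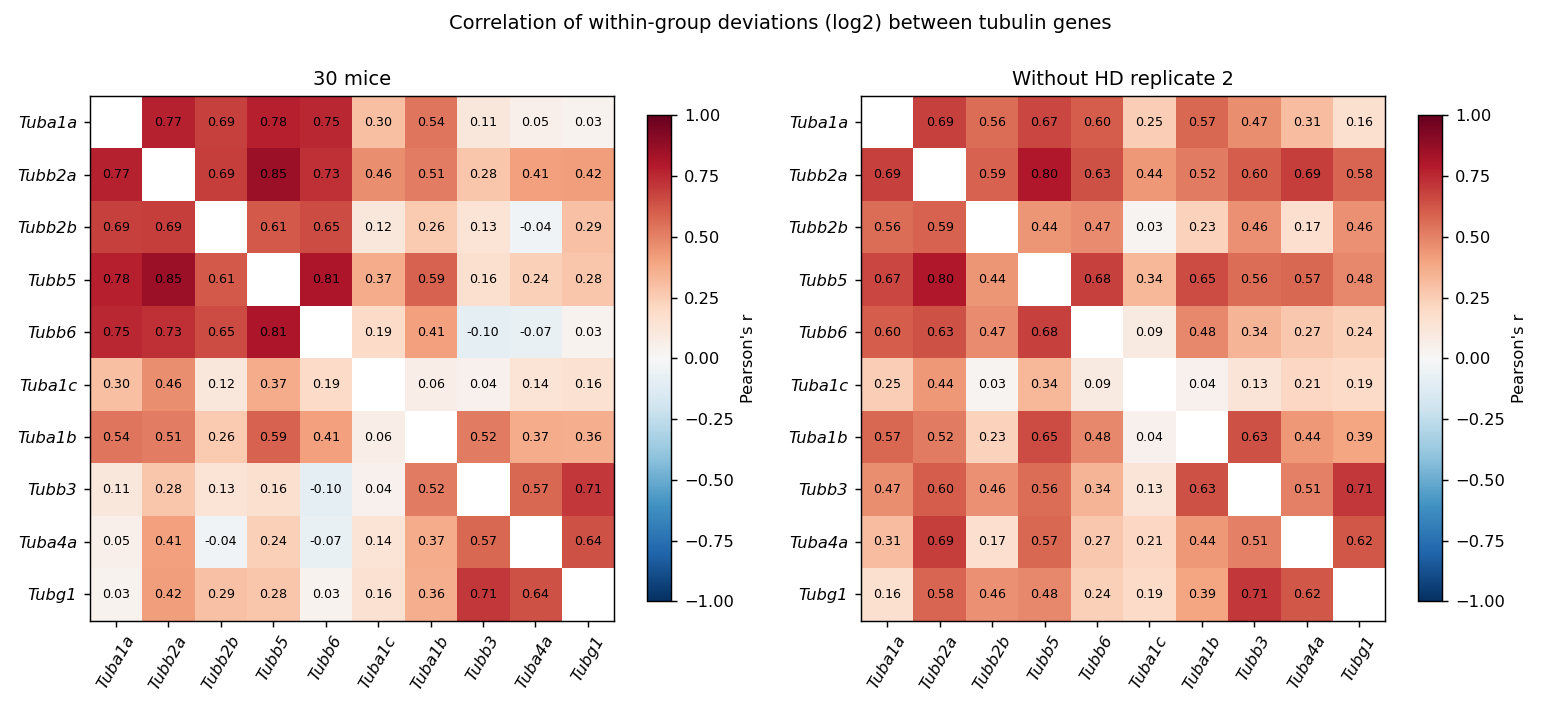
Pearson's r of within-group deviations on the log2 scale between each pair of tubulin genes over 30 mice (left) and without HD replicate 2 (right). Tubb2a and Tubb5 reach 0.852 and 0.804, and Tubb3 and Tubb6 move from -0.100 to 0.336.

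The machinery around tubulin was described from lists of genes by role, for HD pooled over diets, beside 9.09% of all genes with an unadjusted p under 0.05 and a median log2 difference of 0.0011. Of the 6 other tubulins tested 0 had an unadjusted p under 0.05, with a median of 0.0068. The lowest p values were those of Tubd1, the centriolar delta tubulin, with 0.20 (SE 0.10, limma unadjusted p = 0.0593, adjusted p = 0.571), of Tubg2, the other gamma tubulin, with -0.17 (SE 0.089, limma unadjusted p = 0.0707, adjusted p = 0.594), and of Tubb4b, a broadly expressed beta isotype, with 0.053. Of 8 genes of the gamma-tubulin complex 0 did, with a median of -0.049, and the lowest p values were those of its subunit Tubgcp2 with -0.094, the small subunit Mzt1 with -0.064 and the subunit Tubgcp3 with -0.082. Of 16 genes of tubulin folding and autoregulation 0 did in the pooled comparison, and the lowest p was that of Tbca, the cofactor that holds beta tubulin, with 0.16 (SE 0.081, limma unadjusted p = 0.0621, adjusted p = 0.576). The chaperonin subunits Cct3 and Tcp1 followed with 0.082 and 0.044. In HD against Ctr alone, where 8.34% of all genes tested had an unadjusted p under 0.05, 1 of the 16 genes did. It was Tbca with 0.30 (SE 0.11, limma unadjusted p = 0.014, adjusted p = 0.411), with 463, 631, 419.6, 461 and 422 normalized counts in HD mice and 343 to 398 in Ctr mice. HD replicate 2 had the highest of these values. Without it Tbca stayed higher in HD than in Ctr, but 0 of the 16 genes had an unadjusted p under 0.05. Ttc5, the reader of the nascent chains, had 381, 303, 333, 306 and 308 in HD mice and 269, 364, 315, 267 and 322 in Ctr mice, with overlapping groups.

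Of 20 tubulin-modifying enzymes 1 was higher and 1 lower in HD pooled over diets at an unadjusted p under 0.05. Tpgs2, a subunit of the polyglutamylase complex that is named 5730494M16Rik in the annotation, had -0.19 (SE 0.065, limma unadjusted p = 0.00536, adjusted p = 0.261), Ttll12, a member of the tubulin tyrosine ligase-like family, had 0.25 (SE 0.10, limma unadjusted p = 0.0225, adjusted p = 0.437), and Agbl4, a deglutamylase, had -0.21 (SE 0.11, limma unadjusted p = 0.0513, adjusted p = 0.552). Of 31 microtubule-associated proteins 1 was higher and 0 lower. It was Mapre1, the plus-end protein EB1, with 0.13 (SE 0.057, limma unadjusted p = 0.0301, adjusted p = 0.484), while Tppp, which promotes polymerization, had -0.13 (SE 0.067, limma unadjusted p = 0.06, adjusted p = 0.574) and its relative Tppp3 0.19. When HD replicate 2 was left out Mapre1 had 0.093 (limma unadjusted p = 0.0882), so 0 of the 31 genes then had an unadjusted p under 0.05, while Tpgs2 and Ttll12 kept one with -0.18 (limma unadjusted p = 0.0101) and 0.22 (limma unadjusted p = 0.0456). In HD against Ctr alone, where 8.34% of all genes tested had an unadjusted p under 0.05, 0 of 20 modifying enzymes were higher and 2 lower, Tpgs2 with -0.27 and Agbl4 with -0.42. Without HD replicate 2 only Tpgs2 kept an unadjusted p under 0.05, with -0.24 (limma unadjusted p = 0.046). Of the 31 microtubule-associated proteins 1 was higher in HD against Ctr, Mapre1 with 0.24 (SE 0.10, limma unadjusted p = 0.0262, adjusted p = 0.5), and 1 lower. The lower one was Stmn1, a protein that sequesters tubulin dimers, with -0.37 (SE 0.17, limma unadjusted p = 0.0408, adjusted p = 0.567), with 375, 162, 224, 240.3 and 254 normalized counts in HD mice and 407, 296, 299.5, 304 and 279 in Ctr mice, and the groups overlapped. HD replicate 2 had the lowest Stmn1, and without it Stmn1 had -0.23 (limma unadjusted p = 0.154) and Mapre1 0.17 (limma unadjusted p = 0.0944), so neither kept an unadjusted p under 0.05. In the pooled comparison 3 of the 81 genes of these 5 lists had an unadjusted p under 0.05, beside 9.09% of all genes. None of the 81 genes passed limma's adjusted threshold there.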

How the data were processed

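Hippocampus RNA of 30 male BALB/c mice, 5 in each of 6 groups taken from the sample labels, was sequenced by the authors in 1 stranded mRNA library per mouse, with single reads of 75 bases. Per the submitters' processing notes, reads were trimmed with Trim Galore 0.4.2, mapped with HISAT2 to NCBIM37 and counted with featureCounts. The deposited signal values are these counts divided by DESeq2 size factors by the authors, for 21412 genes. Within a tolerance of 0.01, 100% of the values were whole multiples of 1 read, and reads were recovered from them. On these reads edgeR called 45 of all genes in HD against Ctr and 167 in Se_HD against HD at an adjusted p under 0.05, DESeq2 196 and 225, and limma 26 and 70. Of the identifiers 21326 had a symbol in GENCODE vM1. Sequences, positions and union exon lengths came from the same annotation.

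Values were taken as log2 after adding 1 and fitted in limma 3.58.1 (R 4.3.3) with a variance trend, over genes whose sum reached 10. The 15 Ctr, LD and HD libraries gave 20031 genes, the 15 libraries of the selenium groups 19679, and all 30, for contrasts between diets, interactions and the F test, 21383. p-values were adjusted over all genes tested by the Benjamini-Hochberg method, and an adjusted p under 0.05 was a call. The unadjusted p under 0.05 is the threshold of the study. Single genes were also compared by exact permutation tests, whose smallest p is 0.00794. As alternatives, the added constant was 0.1 or 10, the filter was dropped or set at a mean of 10, values were quantile normalized or rescaled within the fit, the trend was dropped, all libraries were fitted at once, the library set was a covariate, edgeR 4.0.16 and DESeq2 1.42.0 were run on recovered reads, and each mouse was left out. The model was also run on simulated data, with changes larger than any main limma difference of a member. The simulated spread was smaller than that of Tubb2b in HD mice, so that run does not bear on the members' differences. The members and gene lists were chosen with earlier results of these data known. In each list the up to 3 genes with the lowest p in the pooled HD comparison were to be named, and Stmn1 and Ttc5 were added after their values were seen. The limma p-values set a group difference against the spread between these mice, moderated by that of all genes. The exact p-values come from relabelling the mice. Tables were handled with pandas 2.3.3, scipy 1.17.1 and Biopython 1.88 in Python 3.11.15.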

Additional observations from a re-analysis of the deposited data

Results flagged for a closer look

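Within the 60 groups of 5 mice (10 genes in 6 groups), the gap of the highest or lowest mouse to the next, as a share of the range of its group, exceeded Dixon's 95% critical value of 0.71 in 6, where chance gives about 3. For HD replicate 2 the share was 0.755 in Tuba1a, 0.783 in Tubb5 and 0.896 in Tubb6, with that mouse the highest of its group each time. Tubg1 was highest in HD replicate 1, with 0.734, at 258 normalized counts against 168 to 192 in the other 4. Tuba1a stood out in Ctr replicate 5, with 0.733 at 2734, and in Se_Ctr replicate 2, with 0.750 at 2620.2, where it was the lowest of its group.

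Of 20 interaction terms, 10 members with 2 doses, 3 had an unadjusted p under 0.05 and 0 an adjusted one, beside 4.77% (HD) and 3.75% (LD) of all genes with an unadjusted p under 0.05. The term for HD by selenium was log2 -0.68 in Tubb2b and -0.34 in Tubb2a (limma adjusted p = 0.966 and 0.997), and that for LD by selenium was -0.31 in Tuba1a (limma adjusted p = 0.998).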

How the results depend on the processing

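Depth limits Tuba1c and Tubb6, which had as few as 6 and 11 reads, and near copies limit the separate values of Tuba1a, Tuba1b, Tuba1c, Tubb2a and Tubb2b. Over all 120 differences (10 genes in 12 comparisons) and the alternatives other than leaving out a mouse, 15 of 1160 values changed sign, all in differences of at most 0.092, and the 2 that came to pass the adjusted threshold were Tubb2b in Se_HD against HD, where edgeR and DESeq2 each called 1 member. The causes were not tested.

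The number of members with an unadjusted p under 0.05 moved from 1 to 0 for HD against Ctr without limma's trend, from 0 to 1 for LD against Ctr and from 1 to 0 for Se_HD against Se_Ctr with all 30 libraries in one fit, and from 1 to 0 for Se_Ctr against Ctr with a pseudocount of 10, a mean of at least 10 normalized counts, no trend, the library set as a covariate, edgeR or DESeq2. It moved from 1 to 2 for Se_HD against HD with edgeR and with DESeq2, from 2 to 1 for HD by selenium with quantile normalization or no trend, and for LD by selenium from 1 to 0 with quantile normalization and to 2 with edgeR and DESeq2.

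Leaving out each mouse in turn gave 0 to 1 members for HD and LD against Ctr and for HD pooled over diets, 0 to 3 for Se_HD against Se_Ctr, Se_Ctr against Ctr and LD by selenium, 0 to 2 for Se_LD against Se_Ctr and Se_LD against LD, 1 to 2 for Se_HD against HD, selenium pooled over doses and the F test, and 1 to 4 for HD by selenium. At the adjusted threshold the count was 0 to 1 for Se_HD against HD, with 1 only without HD replicate 3. Of the 120 differences 48 changed sign without some mouse, all of them with a main value of at most 0.43 in size. Among the 46 of HD against Ctr, of Se_HD against HD and those given for their p or as an extreme in another comparison, 12 did, with these ranges: in HD against Ctr, Tuba1a -0.0080 to 0.13, Tuba1b -0.10 to 0.0047 and Tubb6 -0.31 to 0.36; in Se_HD against HD, Tuba1a -0.11 to 0.031, Tuba1b -0.085 to 0.023, Tuba1c -0.012 to 0.34, Tubb3 -0.0038 to 0.18, Tubb5 -0.084 to 0.061 and Tubg1 -0.14 to 0.015; Tubb3 in Se_LD against Se_Ctr -0.0052 to 0.073, Tubb6 in Se_LD against LD -0.031 to 0.34 and Tubb3 in HD by selenium -0.027 to 0.15. Tubb2b kept its sign in HD against Ctr (0.34 to 0.69) and in Se_HD against HD (-0.81 to -0.45). Without division by length Tubb5 made up 16.6% of the alpha and beta members and Tuba4a 17.6%, both above Tuba1a at 15.5%, where Tubb5 per kb of exon made up 9.72%, and per kb of unshared windows, an alternative added after seeing the data, Tuba1a made up 23.6% and Tuba4a 10.8%, below Tubb2b at 14.9%, with Tuba1b at 10.5% above Tubb5 at 6.86% and Tubb3 at 6.26%, while per kb of exon Tuba1b lies below both. The labels give no replicate numbers shared between groups, but with the library set as a block Tubb2b had an unadjusted p of 0.00892 and an adjusted p of 0.347 in HD against Ctr, and an adjusted p of 0.0839 in Se_HD against HD (limma). The block changed no member's call at the adjusted threshold.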
